A study of Mus musculus with 14 samples.

Results

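Heat shock proteins and chaperones were followed in mouse cerebral cortex with and without Fmr1, which encodes FMRP, a protein that binds mRNA. The genes were chosen by symbol, as all Hspa, Hspb, Hspd, Hspe, Hsph and Hsp90 genes, the Cct genes, Tcp1 and the Dnaja, Dnajb and Dnajc genes, which gave 84 of the 23412 genes in the table. By name they fell into 11 HSP70 genes, 3 HSP110 genes, 3 HSP90 genes, 10 genes of the cytosolic chaperonin TRiC and its relatives, 2 genes of the mitochondrial chaperonin, 4 DNAJA, 13 DNAJB and 28 DNAJC genes, and 10 genes whose symbol starts with Hspb. The last set is mixed: Hspb1 and most others are small heat shock proteins, while Hspbp1, Hspbap1 and Hspb11 only share the letters.

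The control group carried Rpl22flox/flox and CamKCre+, and the knock-out (KO) group carried the same alleles with Fmr1X-Y, so the floxed Rpl22 and the CamK-driven Cre were common to both genotypes. Age is not given in the labels. For RNA-seq there were 4 controls (mice 1, 3, 6 and 8) and 4 knock-outs (mice 2, 4, 5 and 7). For ribosome profiling, which counts the mRNA fragments protected by ribosomes (footprints), there were 3 controls (mice 1, 3 and 9) and 3 knock-outs (mice 2, 4 and 10). The labels tell the mice apart by number only, so p-values measure the spread between these libraries, which may be in part technical.

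Chaperones bind unfolded proteins and help them to fold, to assemble or to be degraded. HSP70 proteins do so in cycles of ATP use that J-domain proteins (DNAJ) start and HSP110 proteins, which release the nucleotide, complete. HSP90 acts later on partly folded clients such as kinases and receptors, and TRiC folds actin and tubulin inside a closed ring. At synapses, Hspa8 works with the vesicle protein Dnajc5 (CSP alpha) and with Dnajc6 (auxilin), which removes clathrin coats from vesicles.

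Total counts were 8847547 to 11371851 in the RNA libraries and 4124065 to 6033030 in the footprint libraries. The members together took 1.25% to 1.42% of RNA counts, 1.37% of footprint counts in each control library and 1.4% in each KO library. Without the gene BC048546, which was called lower in KO footprints, that footprint share was 1.4% to 1.41% in controls and 1.4% in KO. Levels below are in CPM, counts scaled to a common library size. Fmr1, the check of the labels, had an RNA level of 83.0 ± 8.37 CPM (SD, n = 4) in controls against 21.7 ± 2.40 CPM (SD, n = 4) in knock-outs, and a footprint level of 114 ± 2.0 CPM (SD, n = 3) against 7.46 ± 1.43 CPM (SD, n = 3). All 6 markers of excitatory cortical neurons were among the genes tested. Their summed level was 2495 to 2768 CPM in controls and 3137 to 3411 CPM in KO mice in RNA, with Camk2a (0.75 ± 0.099, SE, adjusted p = 7.40e-04, edgeR) and Slc17a7 (0.20) called higher and the other 4 between -0.046 and 0.17, and 5576 to 5721 CPM against 5366 to 5629 CPM in footprints, with 3 called higher and 1, Camk2a, lower (-0.14). The summed level of 6 oligodendrocyte markers did not overlap between the genotypes, at 4888 to 5331 CPM in controls and 4271 to 4598 CPM in KO mice in RNA (1 called lower) and at 8213 to 8372 CPM and 8025 to 8067 CPM in footprints (3 called lower, 1 higher). In footprints the sums of 6 inhibitory neuron markers, at 1625 to 1671 CPM and 1698 to 1724 CPM (3 called higher, 1 lower), and of 6 choroid plexus markers, at 12.5 to 15.8 CPM and 6.66 to 11.7 CPM (Ttr called lower), did not overlap either. The sums of 6 astrocyte markers overlapped in both assays, but Gfap was called lower in RNA (-0.47) and in footprints (-0.34). Aqp4 was called lower in RNA (-0.46), and Gja1 lower (-0.28) and Slc1a2 higher (0.057) in footprints. Fewer cells of a type and less RNA per cell cannot be told apart here, and the part of these markers in the results below was not tested. In RNA the choroid plexus sum was 120 CPM in KO mouse 5 and 282 CPM in control mouse 8, against 6.89 to 20.6 CPM in the other RNA libraries, so these libraries stood apart. KO mice 2, 4 and 7 were close to each other in RNA. The chi-square of their counts per degree of freedom, which is 1 for sampling noise alone, was 1.18 to 1.32 between them, for genes whose counts in a pair summed to 20 or more. It was 5.64 to 6.02 between each of them and KO mouse 5, 1.99 to 11.8 between control RNA libraries and 1.2 to 1.46 between footprint libraries of the same genotype. Whether KO mice 2, 4 and 7 are separate animals or repeat preparations cannot be told from the labels. The n and SD of the KO RNA group may therefore count fewer than 4 independent samples. Footprint libraries of the same genotype were about as close, at 1.2 to 1.46. The same doubt therefore holds for the n of 3, the SD and the p-values in footprints. For RNA, calls of members are also given below without mouse 5 or mouse 8 and with mice 2, 4 and 7 summed. Footprint libraries were not summed. Calls of genes outside the symbol rule are given from the fits over all libraries only.

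A gene is called when its adjusted p in edgeR's quasi-likelihood test was under 0.05, with adjustment over all genes tested. In RNA 72 members passed the filter on low counts, and in footprints 69. The 12 not tested in either assay were Hspa1l, Hspb2, Hspb7, Hspb9, Cct6b, Cct8l1, Dnajb7, Dnajb8, Dnajb13, Dnajc5b, Dnajc5g and Dnajc22, with at most 51 counts each over the 8 RNA libraries and at most 24 over the 6 footprint libraries. Dnajc5g had 0 counts in every library of both assays. Hspa1a, Hspa1b and Dnajb6 were tested in RNA only.

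In footprints, 23 of 69 members (33.3%) were called, 14 higher and 9 lower in KO. Over all 12158 genes tested, 25.7% were called, with 12% higher and 13.7% lower. These splits depended on scaling. On plain library sizes the calls of members and of all genes shifted towards higher, as given in the last section. The median log2 fold change of the members was 0.068, against 0.006 over all genes tested. Differences between classes were not tested. All 3 HSP90 genes fell. DNAJA had 2 called genes, DNAJB 3 and TRiC 3, all of them higher, but 1 of 4 tested DNAJA, 4 of 9 DNAJB and 3 of 8 TRiC genes had negative log2 fold changes. HSP70 and DNAJC had calls both ways. Libraries of the genotypes did not overlap in 22 members that were higher in KO (background 18.1% of genes) and in 11 that were lower (background 19.2%).

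**Figure D1:**
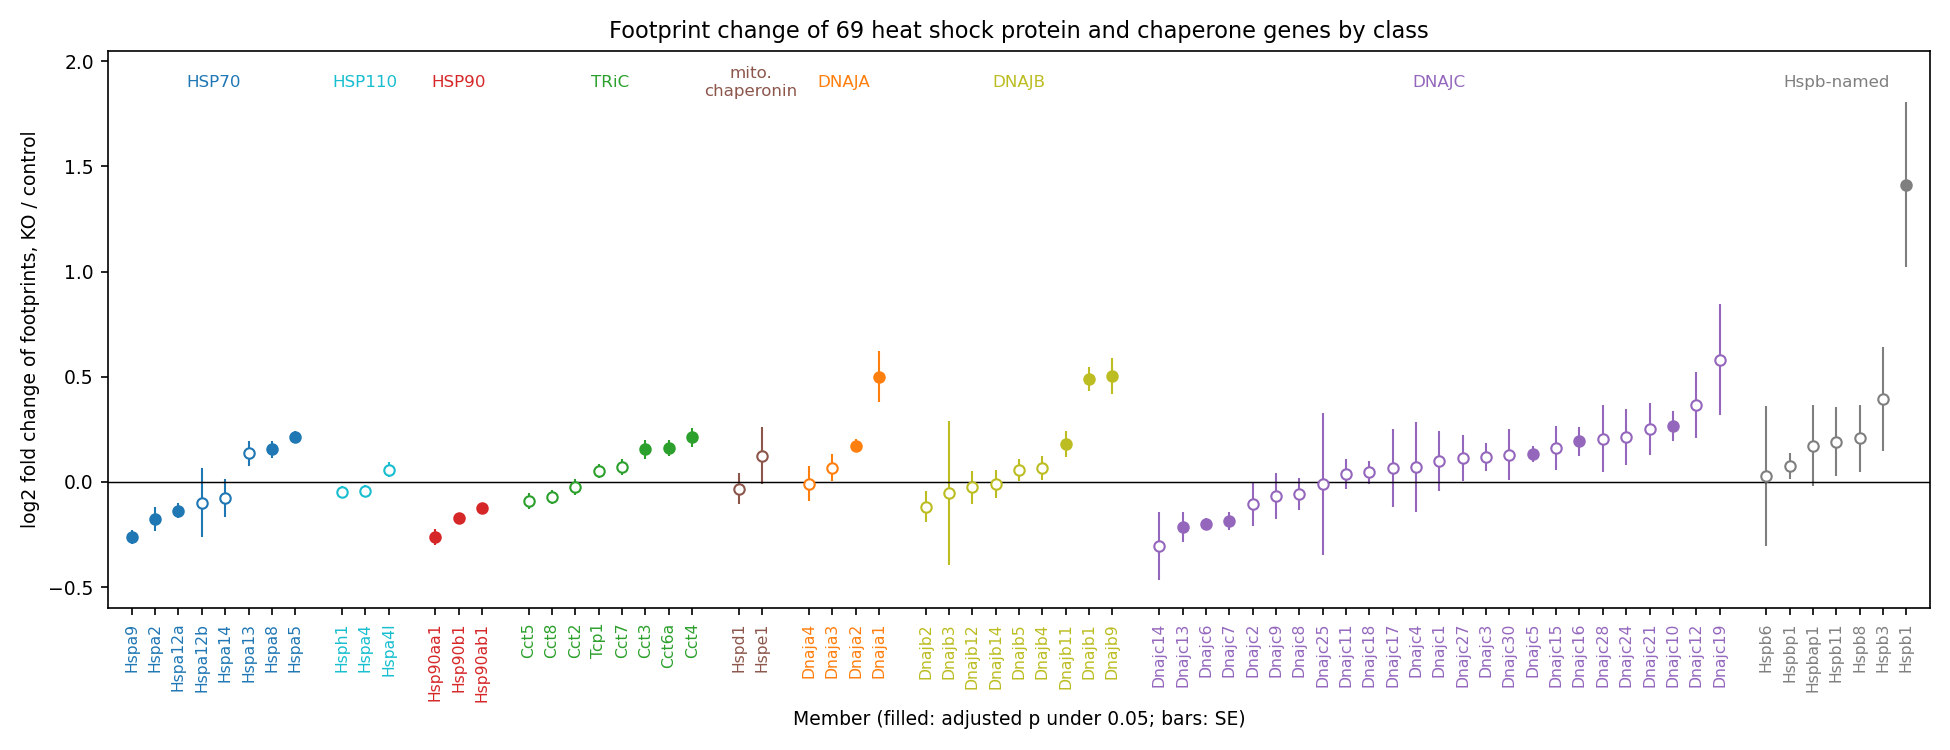
Log2 fold change of footprints (KO over control, y axis) for the 69 members tested, grouped and coloured by class along the x axis; bars are standard errors and filled points have an adjusted p under 0.05. The 3 HSP90 genes lie between -0.26 and -0.12, the called DNAJA and DNAJB genes all lie above 0, and Hspb1 is highest at 1.41.

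The HSP90 family has a stress-inducible cytosolic member, Hsp90aa1, a constitutive cytosolic member, Hsp90ab1, and a member of the endoplasmic reticulum (ER), Hsp90b1 (GRP94). Hsp90ab1 footprints were at 3297, 3338 and 3285 CPM in control mice 1, 3 and 9 and at 2981, 3076 and 3057 CPM in KO mice 2, 4 and 10. Hsp90aa1 was at 287, 293 and 291 CPM in controls and 260, 231 and 237 CPM in KO mice. Hsp90b1 was at 1053, 1067 and 1050 CPM in controls and 941, 936 and 936 CPM in KO mice. For each of the 3 genes the lowest control library lay above the highest KO library. The log2 fold changes were -0.12 ± 0.018 for Hsp90ab1 (SE, adjusted p = 3.70e-08, edgeR), -0.26 ± 0.039 for Hsp90aa1 (SE, adjusted p = 4.30e-08, edgeR) and -0.17 ± 0.024 for Hsp90b1 (SE, adjusted p = 2.60e-09, edgeR). In the single fit over all 14 libraries, in which the assays share 1 estimate of spread, the Hsp90ab1 call was lost at a similar fold (-0.13, adjusted p = 0.173, edgeR) and the other pair stayed called. On plain library sizes the Hsp90ab1 fold was -0.063 and still called by edgeR. In RNA the 3 genes had log2 fold changes from -0.17 to -0.09 and none was called (adjusted p between 0.150 and 0.450, edgeR), and none was called in TE. Other fits did call them. In the single fit over all 14 libraries Hsp90ab1 RNA was called lower (-0.16, adjusted p = 0.0400, edgeR). Without mouse 8, Hsp90aa1 (-0.23) and Hsp90ab1 (-0.21) RNA were called lower (adjusted p = 0.0266 and 0.0223, edgeR), and without mouse 5, Hsp90b1 RNA was (-0.15, adjusted p = 0.0453, edgeR). With the mouse as a replicate block, Hsp90ab1 TE was called higher (0.14 ± 0.044, SE, adjusted p = 0.0172, edgeR). The mitochondrial relative Trap1, which the symbol rule does not take in, was called higher in RNA (0.25 ± 0.066, SE, adjusted p = 0.0364, edgeR) and was not called in footprints.

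**Figure D2:**
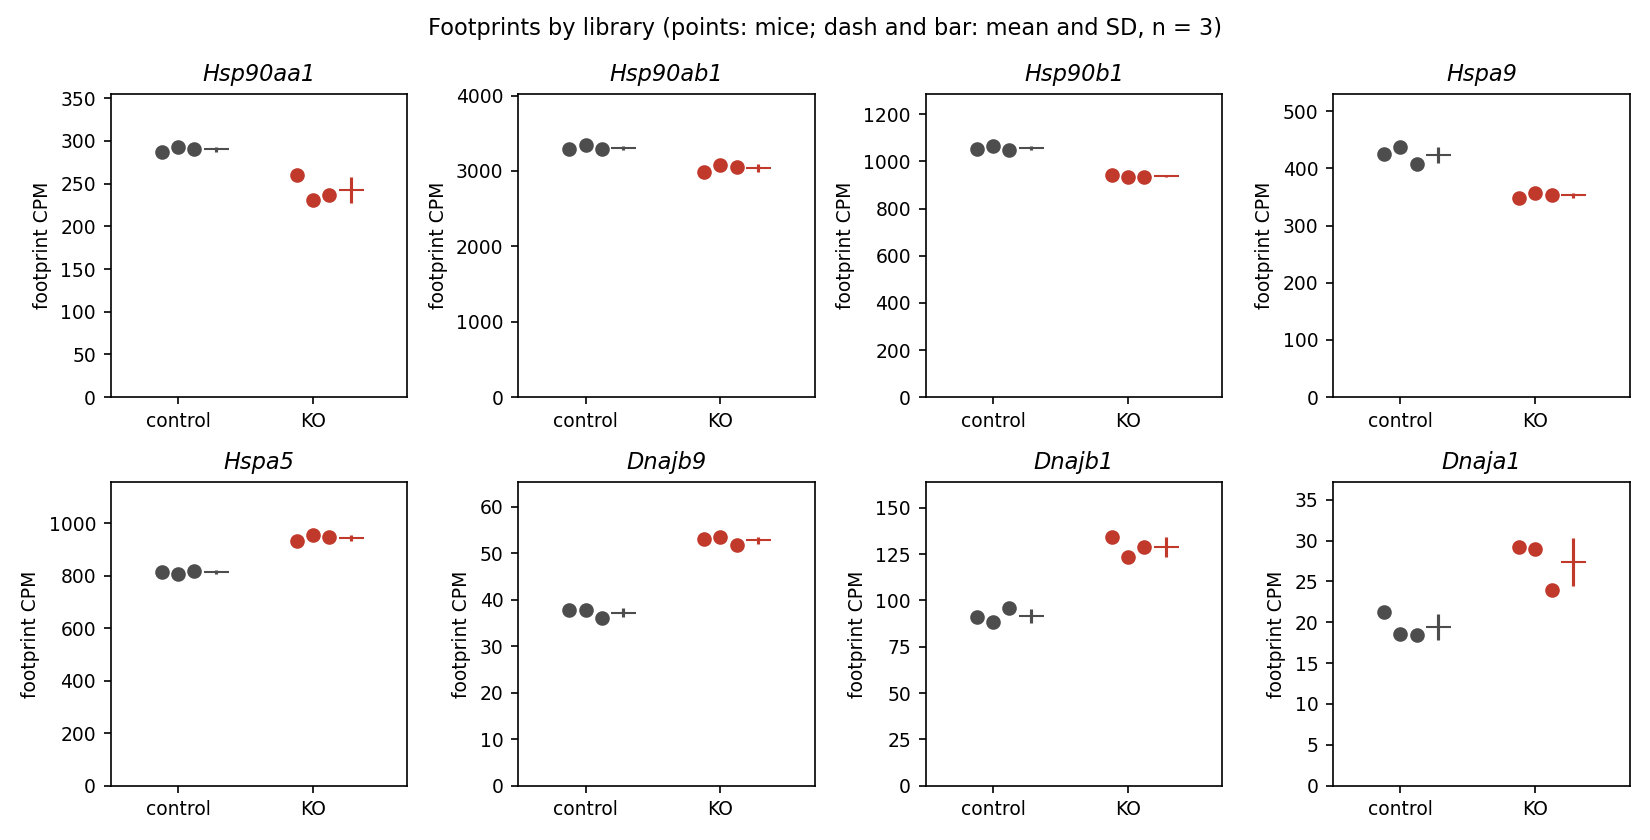
Footprint CPM (y axis, from 0) of 8 members in each of the 3 control and 3 KO libraries; points are mice, and the dash with its bar is the mean with its SD. The 3 HSP90 genes and Hspa9 are lower in every KO library, while Hspa5, Dnajb9, Dnajb1 and Dnaja1 are higher in every KO library.

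Of the HSP70 genes, 2 were called higher in footprints and 3 lower. Hspa5 (BiP), the HSP70 of the ER, had footprints at 815, 806 and 819 CPM in controls and 931, 954 and 948 CPM in KO mice, a log2 change of 0.22 ± 0.024 (SE, adjusted p = 3.62e-12, edgeR). Hspa9 (mortalin), the HSP70 of the mitochondrial matrix, was at 425, 437 and 408 CPM in controls and 349, 356 and 353 CPM in KO mice, a fall of 16.7% (log2 fold change -0.26 ± 0.033, SE, adjusted p = 1.83e-10, edgeR). Both calls held in all 12 alternatives run on them. Hspa8, the constitutive cytosolic HSP70, was at 236, 236 and 251 CPM in controls and 257, 283 and 266 CPM in KO mice, a log2 change of 0.16 ± 0.040 (SE, adjusted p = 0.00144, edgeR), and this call was lost without mouse 4 and in the single fit over both assays. Hspa2 (-0.18 ± 0.056, SE) and Hspa12a, a distant relative (-0.14 ± 0.035, SE), were called lower (adjusted p = 0.0125 and 0.00138, edgeR), and both calls were lost on plain library sizes and in the single fit. The other 3 tested HSP70 genes, Hspa12b, the ER member Hspa13 (0.14 ± 0.059, SE, adjusted p = 0.0807, edgeR) and Hspa14, were not called, and neither were the 3 HSP110 genes, whose log2 fold changes lay between -0.047 and 0.059.

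The stress-inducible Hspa1a and Hspa1b, near-identical neighbours whose reads the counting may have split, were scarce in both genotypes. Over all RNA libraries they had 117 and 105 counts, and over all footprint libraries 25 and 28. Hspa1a RNA was between 0.68 and 2.21 CPM in controls and between 0.98 and 1.92 CPM in KO mice, and Hspa1b between 0.55 and 1.56 CPM and between 0.68 and 2.33 CPM. Neither was called in RNA (0.26 ± 0.33 and 0.41 ± 0.36, SE; adjusted p = 0.682 and 0.535, edgeR), and at this depth only a large change could have been detected.

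Ratios within a library do not depend on how libraries are scaled. Over 6 such ratios, tested with exact two-sided permutation tests, no adjusted p could fall below 0.0571, so these tests could not pass the threshold and the values are given as a description. In footprints the log2 ratio of Hsp90aa1 to Hsp90ab1 counts was -3.51 ± 0.012 (SD, n = 3) in controls and -3.65 ± 0.11 (SD, n = 3) in KO mice (exact p = 0.20, adjusted p = 0.90). In RNA it was -1.23 ± 0.081 (SD, n = 4) and -1.23 ± 0.040 (SD, n = 4; exact p = 0.971, adjusted p = 1). The remaining ratios, of Hspa5 to Hspa8 and of Hspa1a plus Hspa1b to Hspa8, had exact p-values between 0.30 and 1. The smallest p this design allows is 0.0286 in RNA and 0.1 in footprints.

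The ER members did not all move in the same direction. The unfolded protein response raises many ER chaperones through the ER stress response element (ERSE) in their promoters, written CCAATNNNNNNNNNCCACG and searched on both strands. In the RefSeq promoter windows of assembly GRCm38.p6 (250 bases before to 50 after each start), 69 of the 84 members had a window, and 3 of these genes (4.35%) held an ERSE, against 37 of all 27025 genes with a window (0.137%), or 0.119% of all 32851 windows. They are shown because 2 of them belong to the ER chaperones whose footprints moved in opposite directions. Capitals mark the match, and each sequence is read 5′ to 3′ along the strand of its gene. The matches lie at chr2:34772020-34772048 on the plus strand for Hspa5, at chr10:86705633-86705661 and chr10:86705528-86705556 on the minus strand for Hsp90b1, and at chr14:118937822-118937850 on the plus strand for Dnajc3, and the second Hsp90b1 match is on the opposite strand, so its letters read as the reverse complement.
Hspa5: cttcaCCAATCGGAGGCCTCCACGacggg
Hsp90b1 first: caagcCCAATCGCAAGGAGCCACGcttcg
Hsp90b1 second: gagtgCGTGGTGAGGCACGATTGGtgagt
Dnajc3: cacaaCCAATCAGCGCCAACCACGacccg

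Of the 3 genes with these matches, Hspa5 rose in footprints, Hsp90b1 fell, and Dnajc3 (P58IPK), an ER co-chaperone, was not called (0.12 ± 0.068, SE, adjusted p = 0.209, edgeR). The log2 ratio of Hspa5 to Hsp90b1 footprint counts was -0.37, -0.41 and -0.36 in control mice 1, 3 and 9 and -0.015, 0.027 and 0.019 in KO mice 2, 4 and 10. This ratio was chosen after its values were seen and is given with no test. In RNA the same ratio overlapped between the genotypes, from -0.38 to -0.25 in controls and from -0.40 to -0.11 in KO mice, where KO mouse 5 was the lowest. Neither gene was called in RNA over all 8 mice.

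Of the 5 DNAJ genes counted here as residing in the ER, 3 were called higher in footprints. Dnajb9 (ERdj4), which binds Hspa5 and restrains the sensor Ire1, was at 37.9, 37.7 and 36.1 CPM in controls and 53.0, 53.4 and 51.9 CPM in KO mice, a rise of 41.9% (log2 fold change 0.50 ± 0.087, SE, adjusted p = 1.74e-06, edgeR). Dnajc10 (ERdj5), a disulfide reductase, was at 69.8, 66.5 and 62.7 CPM in controls and 82.0, 77.9 and 78.5 CPM in KO mice (0.27 ± 0.069, SE, adjusted p = 0.00174, edgeR). Dnajb11 (ERdj3), which holds secreted proteins for Hspa5, was also called higher (0.18 ± 0.062, SE, adjusted p = 0.0193, edgeR), and that call was lost in 6 of 12 alternatives. Dnajc1 (0.10 ± 0.15, SE, adjusted p = 0.670, edgeR) and Dnajc3 were not called, and neither were the ER-anchored Dnajb12 (-0.026) and Dnajb14 (-0.01). Of 8 members that reside in the ER, a set gathered after the values were seen, 4 were called higher and 1 lower in footprints, when 12% and 13.7% of all genes were, and 0 were called in RNA by edgeR. These counts are a description, since the set was made from genes whose values were known. In RNA, 1 of the 8 had an unadjusted p under 0.05, and DESeq2 also called 0.

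Beyond the symbol rule, the list of ER folding and unfolded protein response genes had 6 of 29 tested genes called higher in footprints and 1 lower. Over all genes the shares were 12% and 13.7%. The higher genes included the secreted protein Manf (0.39 ± 0.076, SE, adjusted p = 1.95e-05, edgeR), the degradation factors Derl2 (0.38 ± 0.14, SE, adjusted p = 0.0415, edgeR) and Herpud1 (0.37 ± 0.062, SE, adjusted p = 7.47e-07, edgeR) and Creld1 (0.26 ± 0.067, SE, adjusted p = 0.00149, edgeR). The lectin chaperone Canx was lower (-0.087 ± 0.023, SE, adjusted p = 0.00181, edgeR). In TE, the footprint count relative to RNA, Manf (0.58 ± 0.098, SE, adjusted p = 7.00e-04, edgeR) and Sdf2 (0.30 ± 0.090, SE, adjusted p = 0.0452, edgeR) were called, both higher. In RNA Sec61b (-0.53) and Sdf2 (-0.26) were called, both lower (adjusted p = 0.0205 and 0.0197, edgeR). These were 2 of 29 tested genes in TE and 2 of 29 in RNA. Over all genes, 3.22% were called higher in TE and 3.94% lower in RNA.

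Among the cytosolic J-domain proteins, Dnajb1 (HSP40), the partner of the inducible HSP70, was called in both assays. Its footprints were at 90.8, 88.6 and 95.7 CPM in control mice 1, 3 and 9 and 134, 123 and 129 CPM in KO mice 2, 4 and 10. Its RNA was at 64.3, 66.7, 65.5 and 69.03 CPM in control mice 1, 3, 6 and 8 and 81.3, 80.5, 70.4 and 80.5 CPM in KO mice 2, 4, 5 and 7. No library overlapped between the genotypes in either assay. The log2 fold change was 0.49 ± 0.057 in footprints (SE, adjusted p = 1.34e-11, edgeR) and 0.24 ± 0.063 in RNA (SE, adjusted p = 0.0347, edgeR), and the difference between them, the TE change, was not called (0.24 ± 0.091, SE, adjusted p = 0.108, edgeR). The footprint call held in all 12 alternatives, while the RNA call was lost in 10 of 19, among them the fit with the prefix of the library titles, which sets apart mice 1 and 2, mice 3 and 4, and mice 5 to 8 in RNA, as a block (adjusted p = 0.0517, edgeR). Dnaja1, a farnesylated partner of Hspa8, rose by 41.6% in footprints (0.50 ± 0.12, SE, adjusted p = 7.95e-04, edgeR), from 21.3, 18.5 and 18.5 CPM to 29.2, 29.0 and 23.9 CPM, while its RNA was not called (0.033 ± 0.065, SE, adjusted p = 0.808, edgeR). Its relative Dnaja2 was at 463, 470 and 465 CPM in controls and 524, 523 and 530 CPM in KO mice (0.17 ± 0.030, SE, adjusted p = 1.27e-06, edgeR), a call lost in the single fit (adjusted p = 0.0843, edgeR). Dnaja4 was called higher in RNA (0.36 ± 0.10, SE, adjusted p = 0.0499, edgeR), a call lost in 12 of 19 alternatives, while its footprints were not called (-0.008 ± 0.081, SE, adjusted p = 0.959, edgeR).

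Of the J-domain partners of Hspa8 at the synapse, Dnajc6 was called lower and Dnajc5 higher in footprints. Dnajc6 (auxilin) footprints were at 576, 566 and 579 CPM in controls and 520, 495 and 484 CPM in KO mice, a log2 change of -0.20 ± 0.029 (SE, adjusted p = 2.83e-08, edgeR). Dnajc6 RNA was also lower in every KO library, at 618 to 630 CPM in controls and 584 to 589 CPM in KO mice, but was not called (-0.089 ± 0.046, SE, adjusted p = 0.255, edgeR). Dnajc5 (CSP alpha) footprints were at 242, 240 and 247 CPM in controls and 262, 270 and 268 CPM in KO mice (0.13 ± 0.039, SE, adjusted p = 0.00511, edgeR), and this call was lost in the single fit over both assays (adjusted p = 0.195, edgeR), while that of Dnajc6 was kept. Its TE was called higher (0.30 ± 0.083, SE, adjusted p = 0.0284, edgeR), with RNA at -0.18 ± 0.065 (SE, adjusted p = 0.111, edgeR). That TE call was lost in 8 of 19 alternatives, and on the exon columns of the RNA counts the TE change was 0.15 (adjusted p = 0.176, edgeR). Sgta, which joins Hspa8 and Dnajc5 on synaptic vesicles, and its neuronal relative Sgtb were both called higher in footprints (0.27 ± 0.058 and 0.30 ± 0.049, SE; adjusted p = 1.68e-04 and 4.93e-07, edgeR). Dnajc7 (TPR2), which passes clients between HSP70 and HSP90, fell in footprints (-0.19 ± 0.041, SE, adjusted p = 1.62e-04, edgeR; adjusted p = 0.107 in the single fit), and so did the endosomal protein Dnajc13 (-0.22 ± 0.072, SE, adjusted p = 0.0167, edgeR). Dnajc16 was the remaining DNAJC gene called higher (0.19 ± 0.070, SE, adjusted p = 0.0288, edgeR), and the calls of Dnajc13 and Dnajc16 were each lost in at least 5 of 12 alternatives.

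TRiC is a ring of 8 different subunits, Tcp1 and Cct2 to Cct8. Footprints of Cct4 were at 179, 179 and 174 CPM in controls and 212, 209 and 196 CPM in KO mice. Cct3 was at 171, 172 and 176 CPM and 186, 196 and 196 CPM, and Cct6a at 264, 274 and 264 CPM and 321, 292 and 287 CPM. The groups did not overlap for these 3 genes, and their log2 fold changes were 0.21 ± 0.044, 0.16 ± 0.045 and 0.16 ± 0.038 (SE; adjusted p = 7.55e-05, 0.00494 and 4.77e-04, edgeR). The other 5 subunits were not called, with log2 fold changes from -0.09 (Cct5, adjusted p = 0.0611, edgeR) to 0.07 (Cct7). Some of these were called in other fits. Cct5 was called lower with the title prefix as a block (-0.09, adjusted p = 0.0479, edgeR) and without mouse 9 (-0.14, adjusted p = 0.00474, edgeR), and Cct7 (0.13) and Tcp1 (0.11) were called higher on plain library sizes (adjusted p = 0.00337 and 0.00724, edgeR). In the single fit over both assays only Cct4 stayed called among Cct3, Cct4 and Cct6a. The list of other chaperones, outside the symbol rule, had 3 of 16 tested genes called higher and 2 lower in footprints, when 12% and 13.7% of all genes were, 1 higher and 5 lower in RNA (3.58% and 3.94% of all genes), and 4 higher in TE (3.22% of all genes). Pdcl, a cofactor of TRiC, was called lower in footprints (-0.21 ± 0.076, SE, adjusted p = 0.0275, edgeR) and in RNA (-0.36 ± 0.071, SE, adjusted p = 0.00907, edgeR), and Hyou1, an HSP70 relative of the ER, was lower in footprints (-0.12 ± 0.041, SE, adjusted p = 0.0191, edgeR). Of the prefoldin subunits, which hand actin and tubulin to TRiC, Vbp1 (0.40 ± 0.070, SE, adjusted p = 2.57e-06, edgeR) and Pfdn1 (0.16 ± 0.062, SE, adjusted p = 0.0401, edgeR) were called higher in footprints, and Pfdn2 (-0.12 ± 0.057, SE, adjusted p = 0.107, edgeR), Pfdn4 and Pfdn5 were not called. In RNA Pfdn1 (-0.36 ± 0.081, SE, adjusted p = 0.0172, edgeR) and Pfdn5 (-0.33 ± 0.078, SE, adjusted p = 0.0204, edgeR) were called lower, and the other 3 were not called. Vbp1 (0.53 ± 0.095, SE, adjusted p = 0.00145, edgeR) and Pfdn1 (0.52 ± 0.11, SE, adjusted p = 0.00499, edgeR) were called higher in TE.

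The mitochondrial chaperonin genes Hspd1 (HSP60) and Hspe1 (HSP10) are transcribed away from each other from a shared stretch of DNA. That stretch holds the heat shock element GAANNTTCNNGAA, searched on both strands, which was found in 0.603% of all promoter windows (0.662% of genes) and, among the members, also in those of Dnajb6 and Hsph1. It is shown because the same bases lie in the windows of both genes. Capitals mark the bases of 2 overlapping matches on opposite strands, at chr1:55088056-55088084 (plus strand, read for Hspe1) and chr1:55088051-55088079 (minus strand, read for Hspd1).
Hspe1: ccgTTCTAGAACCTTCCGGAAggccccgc
Hspd1: gccTTCCGGAAGGTTCTAGAAcggaccgt

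Neither gene of this pair was called in any of the 3 tests over all libraries. Hspe1 RNA was called lower in mice 1 to 4 alone (-0.43 ± 0.098, SE, adjusted p = 0.00207, edgeR), where in mice 5 to 8 it was at 0.12 ± 0.14 (SE, adjusted p = 0.790, edgeR), and its TE was called higher in the fit with the mouse as a replicate block, which uses mice 1 to 4 (0.65 ± 0.19, SE, adjusted p = 0.00848, edgeR). Hspd1 footprints were at 70.0, 64.1 and 61.8 CPM in controls and 67.0, 57.9 and 65.5 CPM in KO mice (-0.032 ± 0.075, SE, adjusted p = 0.803, edgeR). Hspe1 footprints were at 17.3, 16.0 and 21.3 CPM and 16.6, 21.6 and 21.2 CPM (0.12 ± 0.14, SE, adjusted p = 0.555, edgeR). The genotypes overlapped for both genes. RefSeq lists 23 pseudogenes named after Hspd1 and 7 named after Hspe1, so reads of these genes may have been shared with near-identical copies, and their values are uncertain. Hsph1, which also holds a heat shock element, was at 670, 665 and 677 CPM in control footprints and 656, 662 and 630 CPM in KO footprints and was not called (-0.047 ± 0.027, SE, adjusted p = 0.204, edgeR). Of 8 members that reside in mitochondria, a set gathered after the values were seen, Hspa9 was the single gene called in footprints, when 25.7% of all genes were called, and 2 were called lower in RNA (Dnajc11 and Dnajc15; 3.94% of all genes) and 1 higher in TE (Dnajc15; 3.22% of all genes).

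The small heat shock protein Hspb1 (HSP27), an actin-binding chaperone of stressed cells, had the largest log2 fold change among the called members in both assays. It had 5 to 9 counts per control footprint library and 13 to 19 per KO footprint library, or 1.42, 0.85 and 1.6 CPM against 3.09, 3.14 and 3.99 CPM. In RNA it was at 1.41, 1.87, 1.22 and 2.34 CPM in control mice 1, 3, 6 and 8 and 4.20, 2.53, 2.68 and 3.46 CPM in KO mice 2, 4, 5 and 7. No library overlapped in either assay. The log2 fold change was 1.41 ± 0.39 in footprints (SE, adjusted p = 0.00367, edgeR) and 0.90 ± 0.25 in RNA (SE, adjusted p = 0.0422, edgeR). Endothelial cells also express this gene, and the summed level of 6 endothelial markers was 213 to 222 CPM in control footprints and 211 to 242 CPM in KO footprints, with 115 to 219 CPM and 134 to 210 CPM in RNA. Their part in the result was not tested. The other 6 tested Hspb-named genes were not called in either assay, with footprint log2 fold changes from 0.03 to 0.39.

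In RNA, 7 of 72 members (9.72%) were called, 3 higher (Hspb1, Dnajb1 and Dnaja4) and 4 lower, against 7.51% of all 13507 genes, 3.58% higher and 3.94% lower. With the title prefix as a block all 3 higher calls were lost (adjusted p = 0.0513 for Hspb1, 0.0517 for Dnajb1 and 0.0569 for Dnaja4, edgeR), the 4 lower ones were kept, and 7.16% of all genes were called. All 4 lower genes were DNAJC genes. Dnajc8, a nuclear protein of the spliceosome, was at 94.0, 99.0, 90.9 and 89.7 CPM in controls and 63.5, 66.3, 72.8 and 68.9 CPM in KO mice, a log2 change of -0.46 ± 0.062 (SE, adjusted p = 8.17e-04, edgeR). Dnajc17 (-0.48 ± 0.099, SE), Dnajc15 of the mitochondrial inner membrane (-0.36 ± 0.086, SE) and Dnajc11 of the mitochondrial contact site complex (-0.26 ± 0.056, SE) had adjusted p-values of 0.0115, 0.0206 and 0.0127 (edgeR). None of these 4 was called in footprints, where their log2 fold changes lay between -0.06 and 0.16. Of the classes, HSP70, HSP110, HSP90, TRiC and the mitochondrial chaperonin had 0 of 26 genes called by edgeR in RNA, with 4 at an unadjusted p under 0.05 and 0 called by DESeq2. Libraries did not overlap in 7 members that were higher in KO (background 7.1%) and in 7 that were lower (background 7.97%).

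The RNA calls depended on which mice were used. In mice 1 to 4, the mice of both assays, 27 of 72 members were called, 3 higher and 24 lower, or 37.5% against 24.2% of all genes. In mice 5 to 8, which share a title prefix, 0 were called by edgeR, with 8 at an unadjusted p under 0.05, against 0.423% of all genes called. In mice 1 to 4 all 8 TRiC subunits had negative log2 fold changes (median -0.16, 5 called), as had all 3 HSP90 genes (all called, from -0.32 to -0.15), while in mice 5 to 8 the medians were 0.046 and -0.011. Hsph1 changed sign, from -0.26 ± 0.042 (SE, adjusted p = 7.15e-05, edgeR) in mice 1 to 4 to 0.35 ± 0.13 (SE, adjusted p = 0.261, edgeR) in mice 5 to 8. The difference between the sets of mice was not tested. Dnajc8, Dnajc17, Dnajc15, Dnajc11, Dnajb1, Hspb1 and Dnaja4, the 7 members called over all 8 mice, had the same sign in both sets. They were picked by their call over the same mice, so this agreement is no independent check.

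**Figure D3:**
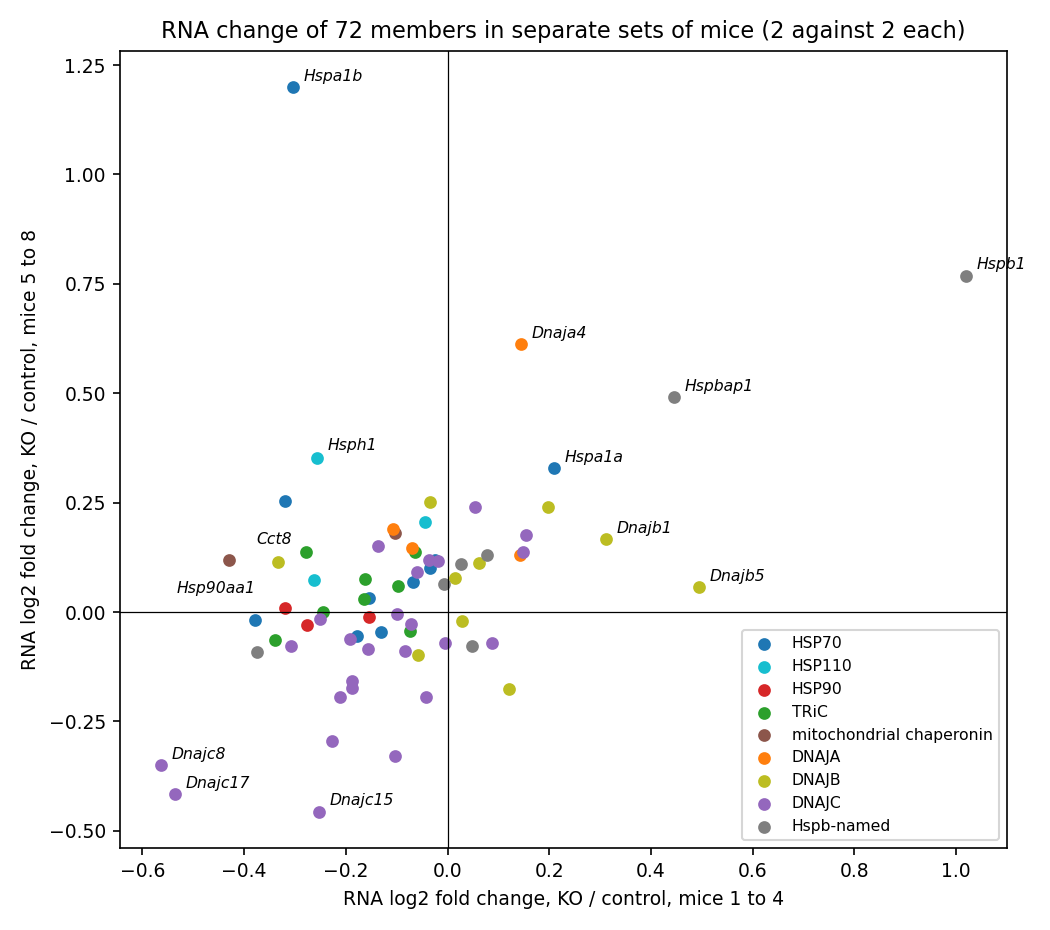
RNA log2 fold change (KO over control) of the 72 members tested, in mice 1 to 4 (x axis) and in mice 5 to 8 (y axis), each with 2 control and 2 KO libraries; points are genes coloured by class. In mice 1 to 4, 53 members lie below 0, and in mice 5 to 8, 30 do.

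Without mouse 5, 13 of 72 members were called in RNA, 4 higher and 9 lower, when 10.7% of all genes were called, 5.34% higher and 5.4% lower. Without mouse 8, 12 were called, 3 higher and 9 lower, when 13.2% of all genes were called, 6.89% higher and 6.31% lower. Besides the HSP90 genes, both fits called Cct2 (-0.27 and -0.25) and Dnajc14 (-0.20 and -0.17) lower, and Hspa2 (-0.31, adjusted p = 0.0139, edgeR) was called lower without mouse 5. Without mouse 4 a single member, Dnajc8, stayed called (2.74% of all genes). With KO mice 2, 4 and 7 summed to 1 library, Dnajc8 was again the 1 member called (0.623% of all genes), and with control mice 1 and 3 summed as well, 0 were called by edgeR (8 at an unadjusted p under 0.05), when 0.263% of all genes were called. Immediate early genes, which neurons transcribe within minutes of activity, were called higher in KO for 13 of 14 genes in RNA and 14 of 14 in footprints, and their summed RNA level was 328 to 332 CPM in control mice 1, 3 and 6, 653 CPM in control mouse 8, 579 CPM in KO mouse 5 and 1256 to 1296 CPM in KO mice 2, 4 and 7. Dnajb5, a J-domain protein named here after its values were seen, followed the same order of libraries in part, at 58.1 to 59.6 CPM in control mice 1, 3 and 6, 75.4 CPM in control mouse 8, 63.1 CPM in KO mouse 5 and 75.8 to 84.1 CPM in KO mice 2, 4 and 7. It was not called over all 8 mice (0.28 ± 0.099, SE, adjusted p = 0.098, edgeR) and was called without mouse 5 (0.36, adjusted p = 0.0230, edgeR), without mouse 8 (0.38, adjusted p = 0.00836, edgeR) and in mice 1 to 4 (0.50, adjusted p = 3.10e-06, edgeR). Dnajb5 footprints were not called (0.057 ± 0.051, SE, adjusted p = 0.459, edgeR), where 14 of 14 immediate early genes were called higher. Dnajb1 RNA was also lowest among the KO mice in mouse 5. The part of the immediate early gene level in these values was not tested.

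**Figure D4:**
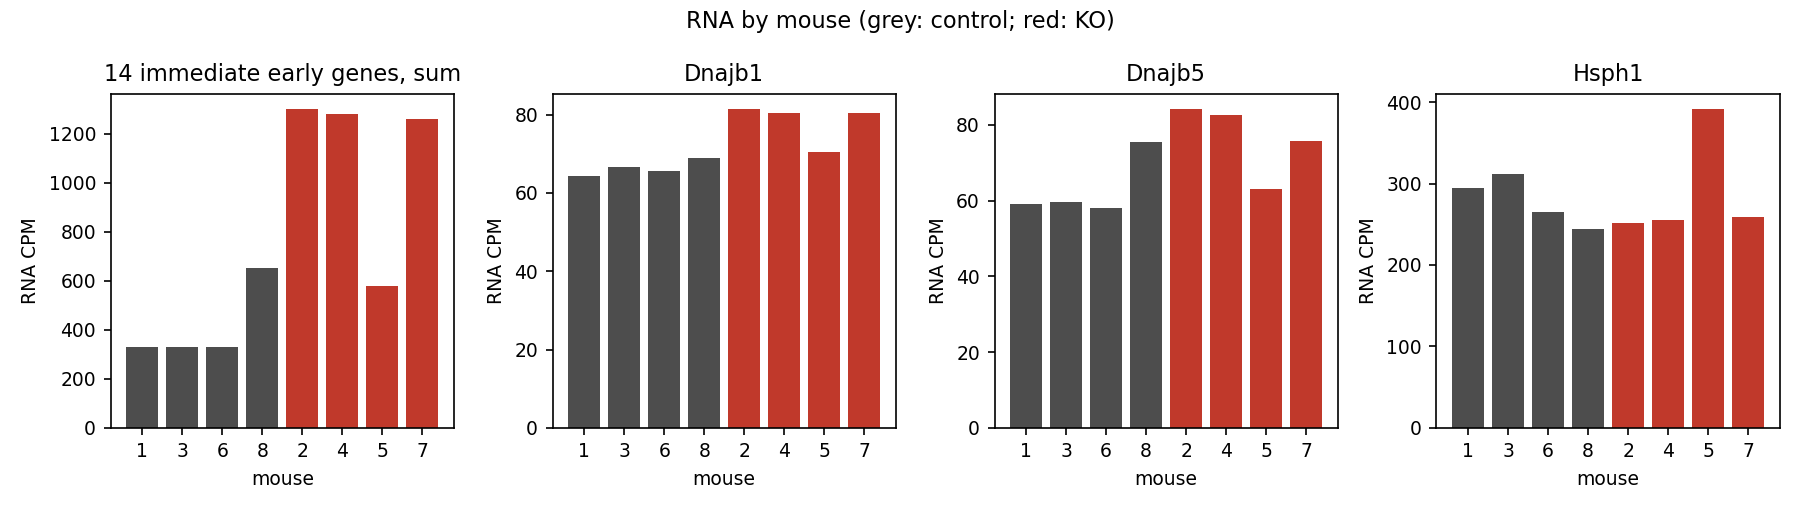
RNA CPM (y axis, from 0) by mouse for the sum of 14 immediate early genes, for Dnajb1, for Dnajb5 and for Hsph1; grey bars are control mice and red bars are KO mice. KO mouse 5 is the lowest KO mouse in the first 3 panels and the highest, at 391 CPM, in the Hsph1 panel.

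TE was tested as the interaction of genotype and assay over all 14 libraries. Of 69 members, 6 (8.70%) were called, all of them higher in KO, against 7.44% of all 12145 genes (3.22% higher, 4.22% lower). The median over the members was 0.095 and over all genes -0.011. Dnajc15 (0.52 ± 0.14, SE, adjusted p = 0.0240, edgeR) and Dnajc8 (0.39 ± 0.10, SE, adjusted p = 0.0198, edgeR) combined a called fall in RNA with footprints that were not called. Dnaja1 (0.46 ± 0.14, SE, adjusted p = 0.0446, edgeR), Dnajc5, Cct3 (0.28 ± 0.084, SE, adjusted p = 0.0467, edgeR) and Hspa5 (0.21 ± 0.063, SE, adjusted p = 0.0423, edgeR) combined a called rise in footprints with RNA that was not called. All 6 TE calls were lost without mouse 2, and all 6 without mouse 4, with 14 and 16 members at an unadjusted p under 0.05 (edgeR). They were also lost with KO mice 2, 4 and 7 summed, with 15 members at an unadjusted p under 0.05 (edgeR). With the title prefix as a block, the calls of Cct3, Dnaja1 and Hspa5 were lost.

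In the fit with the mouse as a replicate block, which keeps only mice 1 to 4, 21 members were called in TE, 20 higher and 1 lower (Dnajb5, -0.44 ± 0.093, SE, adjusted p = 6.60e-05, edgeR), against 15.4% of all genes. That fit called Hsp90ab1, Hspe1, Hsph1, Hspa4, Hspa8, Hspa13 and 7 of the 8 TRiC subunits higher, with Cct3 at 0.39 ± 0.077 (SE, adjusted p = 1.12e-05, edgeR), Cct6a at 0.35 ± 0.068 (SE, adjusted p = 1.37e-05, edgeR) and Tcp1 at 0.21 ± 0.061 (SE, adjusted p = 0.00841, edgeR), and Cct5 was not called. It kept 5 of the 6 calls made over all libraries and lost Dnajc15. These are the mice in which the RNA of HSP90 and of most TRiC subunits was lower in KO. In RNA control mice 1 and 3 were the closest control pair (chi-square per degree of freedom 1.99) and KO mice 2 and 4 were at 1.32. Whether they are repeat preparations cannot be told. TE with KO mice 2, 4 and 7 summed called 0 members, and so did TE with control mice 1 and 3 summed as well (15 and 14 at an unadjusted p under 0.05, edgeR). Deviations of the same mouse were hardly correlated between the assays (-0.012 to 0.035).

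Control mice also showed how unevenly the members' RNA was covered by footprints. The log2 ratio of footprint CPM to RNA CPM in controls had a median of 0.20 over 69 members and -0.13 over all 12145 genes, and is given with no test. TRiC subunits lay close together, from -0.17 (Cct3) to 0.63 (Cct8), in the 48.2 to 83.4 percentile range of all genes. Members of one class could lie far apart. Hspa8 was at -2.70 (percentile 1.44) and Hspa5 at 0.58 (percentile 81.7), Hsp90aa1 at -1.88 (percentile 5.17) and Hsp90ab1 at 0.41 (percentile 75.4), and Dnaja1 at -2.53 (percentile 1.87) and Dnaja2 at 1.24 (percentile 96.0). The same order was seen in each of control mice 1 and 3, which were in both assays, where Hspa8 was at -2.87 and -2.81 and Hsp90aa1 at -1.98 and -2.06. The lowest ratio was that of Dnajc14 (-3.06, percentile 0.823), and the highest were those of Hspa12b (1.45), Hspb6 (1.31) and Hsph1 (1.26). Dnajb6 fell outside the test with 29 footprint counts over 6 libraries against 2520 RNA counts over 8. How reads that match several places were counted is not given in the sources used here. The part of near-identical copies in these low ratios, and in the footprint and TE changes of Hspa8, Hsp90aa1 and Dnaja1 above, was not tested. RefSeq lists 1 pseudogene named after Dnaja1.

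**Figure D5:**
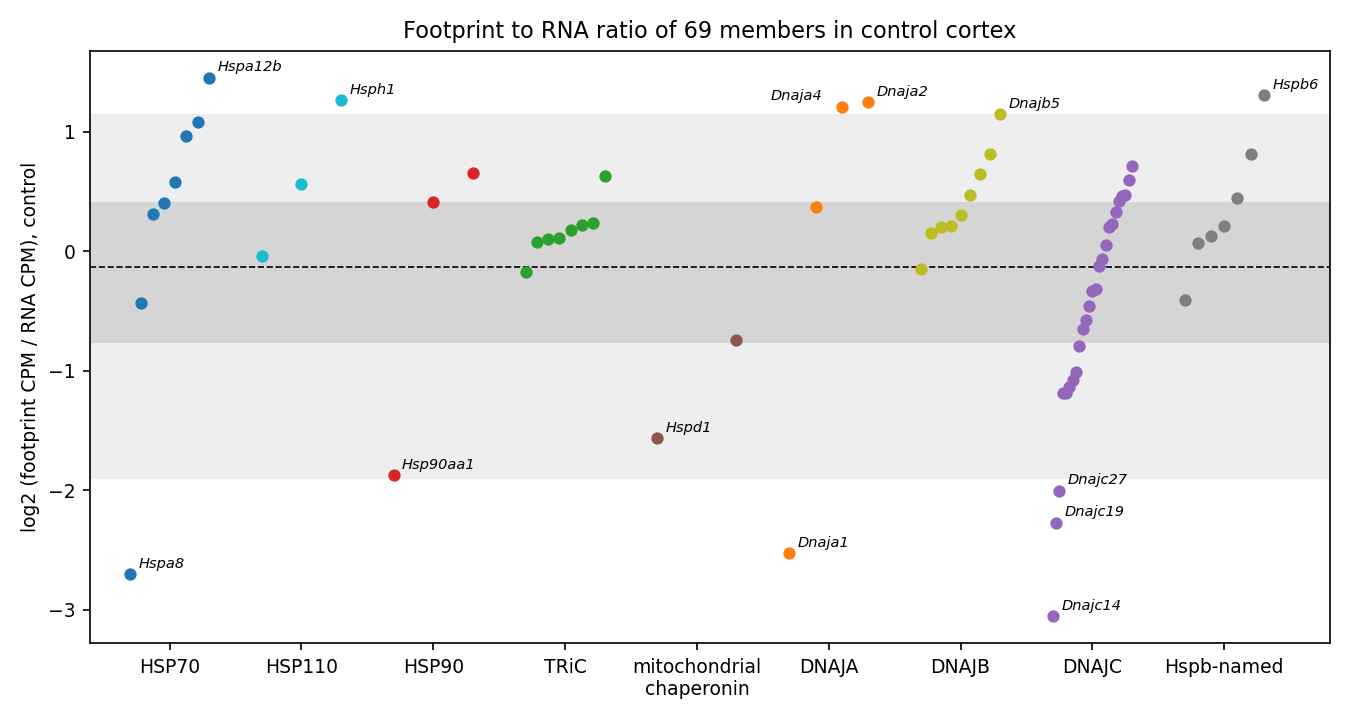
Log2 ratio of footprint CPM to RNA CPM in control mice (y axis) for the 69 members tested in both assays, by class (x axis); the dark and light bands hold the middle 50% and 90% of all 12145 genes and the dashed line is their median. Hspa8, Dnaja1, Dnajc14, Dnajc19 and Dnajc27 lie below the light band, and 6 members with ratios of 1.15 to 1.45 lie above it.

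Co-chaperones outside the symbol rule moved both ways. Of 32 tested in footprints, 8 were called higher and 5 lower, when 12% and 13.7% of all genes were. The higher ones included Cdc37l1 (0.38 ± 0.094, SE, adjusted p = 0.00104, edgeR) and Cacybp (0.33 ± 0.088, SE, adjusted p = 0.00209, edgeR), and the lower ones included the cyclophilin Ppid, a partner of HSP90 (-0.33 ± 0.094, SE, adjusted p = 0.00457, edgeR), and Bag6 (-0.24 ± 0.040, SE, adjusted p = 5.03e-07, edgeR). In RNA the kinase co-chaperone Cdc37 was called higher (0.25 ± 0.061, SE, adjusted p = 0.0245, edgeR) and Stip1 (HOP), which joins HSP70 to HSP90, lower (-0.20 ± 0.055, SE, adjusted p = 0.0409, edgeR). In TE Cdc37 was called lower (-0.31 ± 0.081, SE, adjusted p = 0.0223, edgeR) and Sgtb higher (0.31 ± 0.080, SE, adjusted p = 0.0184, edgeR). Hsf1, Hsf2 and Hsf4, factors that turn on heat shock genes, were not called in any test. Hsbp1, which binds Hsf1, was called lower in RNA (-0.20 ± 0.056, SE, adjusted p = 0.0442, edgeR), higher in footprints (0.18 ± 0.035, SE, adjusted p = 1.36e-05, edgeR) and higher in TE (0.38 ± 0.073, SE, adjusted p = 0.00239, edgeR). Btf3 and Naca, the subunits of the complex that shields new chains at the ribosome, were called lower in RNA (-0.25 ± 0.054 and -0.38 ± 0.063, SE; adjusted p = 0.0136 and 0.00309, edgeR) and higher in TE (0.88 ± 0.12 and 0.74 ± 0.17, SE; adjusted p = 7.22e-05 and 0.00905, edgeR). In footprints Btf3 was called higher (0.63 ± 0.11, SE, adjusted p = 1.59e-06, edgeR) and Naca was not called (0.37 ± 0.15, SE, adjusted p = 0.0611, edgeR).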

How the data were processed

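RNA-seq (8 libraries) and ribosome profiling (6 libraries) of mouse cortex were used as the authors deposited them, as a single table of raw integer counts. Per the submitters' processing notes, the tools included Bowtie2, STAR 2.5 and featureCounts of Subread 1.4.6, and the builds mm9 and mm10; the annotation, strand setting and region counted are not given in the sources used here. The genes counted in both assays (20563 of 23412) were used, and the exon columns of RNA served as an alternative. How far these differ from the main RNA columns depends on the gene. Over all libraries Dnajc5 had 11995 main and 70537 exon counts, and Dnajc17 had 895 in both.

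Counts were tested with edgeR 4.0.16 (R 4.3.3, quasi-likelihood F test, TMM, filterByExpr with a minimum count of 10, two-sided), separately in RNA and in footprints. TE was tested as the interaction of genotype and assay. P-values were adjusted by Benjamini and Hochberg's method over all genes tested, at a threshold of 0.05. CPM values use TMM factors, standard errors come from the F statistic, and the test was checked on simulated counts. DESeq2 1.42.0 was an alternative. The planned levels per codon were not computed, because protein lengths were not used here.

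Mice 1 to 4 were in both assays, so the mouse number pairs the libraries by label. The correlations of their deviations from the group means were 0.003, 0.011, 0.035 and -0.012. These values gave no sign of pairing. The fit with that pairing is given beside the TE result.

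The members, classes and gene lists were chosen with earlier results of these data known. Named genes are the members called in any test, a fixed set of main chaperones, and at most 4 called genes per list and test with the largest change. Sgta, Bag6, Canx, Trap1 and Hyou1, outside that rule, were chosen after their values were seen, as were Dnajb5 and the ER and mitochondrial sets. Promoter sequences are from RefSeq (GRCm38.p6), and all 84 symbols matched its gene table.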

Additional observations from a re-analysis of the deposited data

Results flagged for a closer look

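Within the RNA groups of 4, Dixon's test singled out 10 of 76 groups, where chance would give about 3.8 at 1 in 20. In 9 of them the library was KO mouse 5. It was highest among the KO mice for Cct2 (251 CPM, others 208 to 213), Cct8 (317 CPM, others 253 to 258), Dnaja1 (124 CPM, others 111 to 113), Hspa2 (65.2 CPM, others 47.8 to 50.4) and Hsph1 (391 CPM, others 251 to 259). It was lowest for Cct5 (253 CPM, others 267 to 269), Dnajb1 (70.4 CPM, others 80.5 to 81.3), Dnajc7 (136 CPM, others 155 to 157) and Hspa8 (1470 CPM, others 1620 to 1640). The remaining one was control mouse 6 for Hsp90b1 (647 CPM, others 679 to 683). The same mouse 5 had raised choroid plexus markers and the lowest immediate early gene level among KO mice, and their part in these values was not tested.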

How the results depend on the processing

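Of the 36 calls of named members, 11 held under every alternative that gave a value, all in footprints: Hsp90aa1, Hsp90b1, Hspa5, Hspa9, Hspb1, Dnaja1, Dnajb1, Dnajb9, Dnajc6, Dnajc10 and Cct4. Hspb1 gave a value in 11 alternatives and each of the others in 12. DESeq2 called 0 of 7 Hspb-named genes in footprints. No alternative summed footprint libraries. Each call in RNA and in TE was lost under at least 1 alternative. Shares in parentheses are of all genes called under the same setting. The count of 7 members called in RNA (7.51%) became 4 with the title prefix as a block, all of them lower (7.16%), 1 with KO mice 2, 4 and 7 summed (0.623%), 0 with control mice 1 and 3 summed as well (0.263%), 0 in mice 5 to 8 (0.423%), 27 in mice 1 to 4 (24.2%) and 16 in 1 fit over all 14 libraries (15.3%). Leaving out 1 mouse gave 1 to 13 (2.74% to 13.2%). The 23 members called in footprints (25.7%) became 11 in that single fit (12.6%), and leaving out 1 mouse gave 20 to 23 (20.7% to 23.4%). The 6 members called in TE (7.44%) became 11 on plain library sizes (8.18%), 3 with no filter on low counts (4.87%), 3 with the prefix block (6.2%), 0 with KO mice 2, 4 and 7 summed (4.16%), 0 with the controls summed as well (4.21%), and 21 in the fit with the replicate block (15.4%). Leaving out 1 mouse gave 0 to 10 (3.05% to 10.1%). On plain library sizes the footprint calls of members were 20 higher and 6 lower, and 66.3% of all footprint calls were higher, against 46.8% with TMM. In TE that share was 67.9% against 43.3%. Signs turned with a call in mice 1 to 4 for Dnajc13 RNA (-0.14) and Hsph1 RNA (-0.26), and with the replicate block for Cct8 TE (0.18) and Hsph1 TE (0.23). The cause was not tested. The older quasi-likelihood method of edgeR was added after the data were seen and called 8, 23 and 6 members. Depth limits what can be said of members with few counts, such as Hspa1a, Hspa1b, Hspb1 and Hspb6, and of Dnajb6 in footprints.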
